A study of Mus musculus with 6 samples.

Results

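Cpt1a and Acaa2 are genes of mitochondrial fatty acid oxidation, and their RNA was followed here in mouse sperm after normal chow (NC) or a high-fat diet (HFD). They are 2 of the 60706 probe IDs for RNA on the array and were chosen by their probe names, A_51_P427674 for Cpt1a (NM_013495) and A_51_P125260 for Acaa2 (NM_177470). Each was spotted 10 times on every array, so 20 of the 62976 spots of an array belong to these genes. Male C57BL/6 N mice were fed NC or a 60% fat HFD from 5 to 15 weeks of age, although the sample labels give week 10 as the age. Sperm were released from the epididymis and treated with a lysis solution against somatic cells. Each diet has 3 samples from separate experiments with different donors, 1 array per sample, and the number of males behind a sample is not given in the sources used here. RNA bound by an antibody against N6-methyladenosine (m6A), a methyl mark on adenosines of RNA, was labeled with Cy5 and is called IP. RNA left in the supernatant was labeled with Cy3 and is called Sup.

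Fatty acids enter the mitochondrion as carnitine esters, which are made by carnitine palmitoyltransferase 1 in its outer membrane. CPT1A is the form best known from liver, and this step limits the rate of fatty acid oxidation. Inside, each round of β-oxidation shortens the acyl chain and ends with a thiolase that releases acetyl-CoA. ACAA2 is the mitochondrial 3-ketoacyl-CoA thiolase of that last step. Cpt1a thus stands at the entry of the pathway and Acaa2 at its end. Mature sperm transcribe little, so RNA in sperm is largely carried over from earlier stages of spermatogenesis.

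Intensities were scaled in each channel by spike-in RNA that was added to the samples. RNA amount is the sum of scaled IP and Sup and the m6A level is IP/(IP+Sup), so a value of 1 in either scaled channel equals the mean of the spike-in probes, and a probe at that mean in both channels has an RNA amount of 2. Levels of different probes are not set against each other, because probes differ in how well they bind. NC 1 stood apart in its spike-in signal, where IP exceeded Sup by 0.90 in log2 against 0.22 to 0.46 on the other 5 arrays, and HFD 3 was scanned apart from the others. An entry in the file headers that may name the slide is shared by the NC arrays and HFD 3 and differs on HFD 1 and HFD 2, and since its meaning is not stated, slide and diet cannot be told apart for HFD 1 and HFD 2. In full, the entry of HFD 3 is the same as that of NC 1 although its scan differs, so HFD 3 may not share a slide with NC. Probes well above background ranged from 28.6% in IP on NC 1 to 55.3% in IP on HFD 3. In Sup, the 3' control probe of Gapdh divided by its 5' probe, a sign of RNA integrity, was 1.107, 1.320 and 1.495 in NC and 1.73, 1.65 and 1.64 in HFD. This ratio was higher on every HFD array than on any NC array (exact permutation test, two-sided, p = 0.10), and so was that in IP, at 2.70, 2.64 and 2.76 in NC and 3.83, 3.07 and 2.80 in HFD. The part of RNA integrity in the results below was not tested. In RNA of a whole sperm sample, fewer cells of a type and less RNA per cell cannot be told apart. None of the 30 marker genes listed for sperm and for epididymal, blood and testicular somatic cells has a probe with a gene name here, so the tissue label was not checked against markers.

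Cpt1a RNA was more variable between NC samples than between HFD samples, as were 56.0% of the tested probes in RNA amount, and the diets overlapped. The RNA amount, the sum of both scaled channels, was 1.34, 3.58 and 2.03 on NC 1, NC 2 and NC 3. The same sum came to 3.16, 3.51 and 3.18 on HFD 1, HFD 2 and HFD 3. The highest of all arrays was therefore an NC array, while NC 1 and NC 3 lay below every HFD array. The mean was 2.31 ± 1.15 (SD, n = 3) for NC against 3.29 ± 0.20 (SD, n = 3) for HFD. The log2 difference was 0.62 (standard error 0.32, 95% confidence interval from -0.09 to 1.34), a fold change of 1.54 that did not pass (limma's test, unadjusted p = 0.081, adjusted p = 0.29). A call needed a fold change over 1.5 with an unadjusted p under 0.05, and 11.3% of the 30224 probes tested were called higher in HFD in RNA amount. The exact permutation test of the arrays gave p = 0.40, where 0.10 is the smallest p that 3 arrays against 3 allow.

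The comparison for Cpt1a changed with single NC arrays. Without NC 2, the log2 difference was 0.996, a call (limma's test, adjusted p = 0.048). Without NC 1, it was 0.28 (adjusted p = 0.58 from the same test). Leaving out the separately scanned HFD 3 gave 0.64, close to the value with all arrays.

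**Figure D1:**
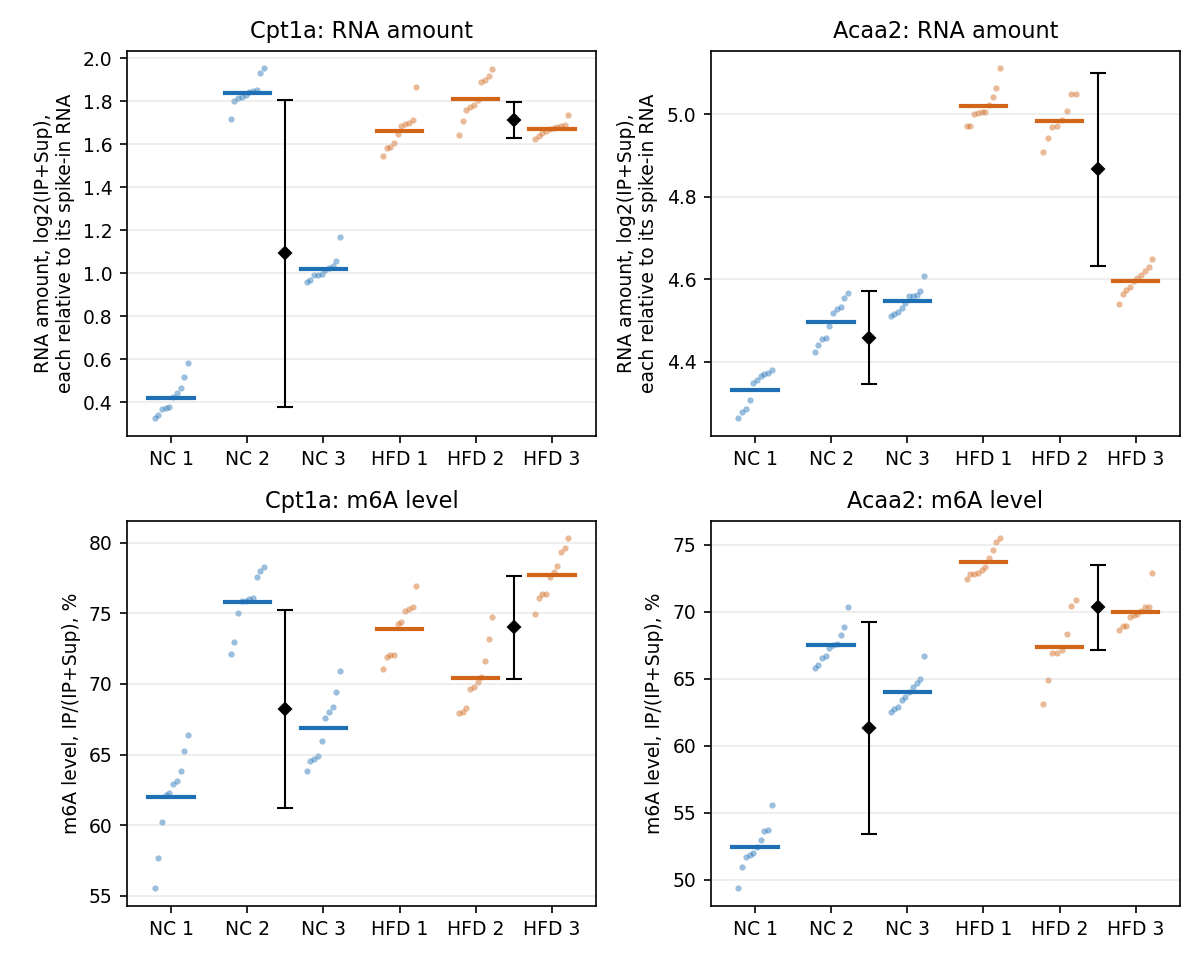
RNA amount (log2 of the sum of IP and Sup, each relative to the spike-in RNA of its channel, top) and m6A level (IP/(IP+Sup) in percent, bottom) of Cpt1a and Acaa2 on each array, with axes that do not start at 0. Small points are the spots, colored bars the array values from the mean log2 intensities, and diamonds with error bars the mean and SD of the 3 arrays of a diet; Cpt1a spans 0.42 to 1.84 in NC against 1.66 to 1.81 in HFD, and every HFD array of Acaa2 lies above the NC arrays in RNA amount.

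In IP, the spread of Cpt1a was large between NC arrays and small between HFD arrays. On the log2 scale, IP was -0.27, 1.44 and 0.44 in NC, and 1.22, 1.31 and 1.31 in HFD. The 3 HFD values thus lay within 0.1 of each other, with an SD of 0.05, whereas the NC SD was 0.86. An NC SD above the HFD SD in IP was found for 65.2% of the tested probes, and 87.8% of the tested probes had a smaller NC SD in IP. For the HFD spread, 2.30% of the tested probes had a smaller SD. The log2 difference in IP was 0.74 (standard error 0.41, 95% confidence interval from -0.20 to 1.68), with the diets overlapping and no call (limma's test, adjusted p = 0.35). Without NC 2 it was 1.20 and a call (limma's test, unadjusted p = 0.0043, adjusted p = 0.088), and without NC 1 it was 0.34. Among the tested probes, 16% were called higher in HFD in IP.

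Sup of Cpt1a varied less than IP between the NC arrays (SD 0.38 against 0.86) and more between the HFD arrays (SD 0.28 against 0.05). It was -0.98, -0.21 and -0.58 in log2 in NC, and -0.28, 0.05 and -0.50 in HFD. HFD 2 was the highest of all arrays and NC 1 the lowest, with the others interleaved. The log2 difference was 0.35 (standard error 0.26, 95% confidence interval from -0.25 to 0.94), and no call was made (limma's test, adjusted p = 0.65), with 6.4% of the tested probes called higher in HFD in Sup. With single arrays left out it ran from 0.15 without NC 1 to 0.54 without NC 2.

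The m6A level of Cpt1a was above 50% on every array. It was 62.0%, 75.8% and 66.9% in NC, and 73.9%, 70.4% and 77.7% in HFD. NC 2 lay inside the HFD range, and the lowest HFD array lay below it. The level was 68.2% ± 7.01 (SD, n = 3) for NC against 74.0% ± 3.64 (SD, n = 3) for HFD, and the gap of 5.79 percentage points was within the spread of the arrays (p = 0.30 by a two-sided exact permutation test). On the log2 scale the difference was 0.12 (95% confidence interval from -0.22 to 0.46; limma's test, adjusted p = 0.81), against a median of 0.15 over all tested probes, of which 3.02% were called higher in HFD. The interval runs from a level 0.86 times to 1.38 times that of NC. The log2 difference was 0.05 without NC 1 and 0.20 without NC 2.

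Acaa2 RNA was higher on all HFD arrays than on any NC array, in RNA amount and in the m6A-bound IP but not in Sup. Its RNA amount, again the sum of both scaled channels, was 20.1, 22.6 and 23.4 on NC 1, NC 2 and NC 3. The sum came to 32.4, 31.6 and 24.2 on HFD 1, HFD 2 and HFD 3. The diets did not overlap, but HFD 3 lay close to NC 3. The mean was 22.02 ± 1.69 (SD, n = 3) for NC against 29.4 ± 4.54 (SD, n = 3) for HFD, and the log2 difference was 0.41 (standard error 0.18, 95% confidence interval from -0.002 to 0.82). This fold change of 1.33 was under 1.5 and made no call (limma's test, unadjusted p = 0.051, adjusted p = 0.24). Such a separation in RNA amount, with HFD above NC, was found on 20.9% of the tested probes. The exact permutation test gave p = 0.10, the smallest it can give here. Without NC 1 the log2 difference was 0.34. HFD 1 and HFD 2, which carry the other header entry, exceeded the NC mean by 0.54 in log2, and HFD 3, which shares the entry of NC, exceeded it by 0.14.

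IP of Acaa2 rose in HFD by the thresholds used. It was 3.399, 3.93 and 3.90 in log2 in NC, and 4.58, 4.41 and 4.08 in HFD. Each of the 3 HFD arrays lay above each NC array. The log2 difference was 0.61 (standard error 0.26, 95% confidence interval from 0.006 to 1.22), a fold change of 1.53 (limma's test, unadjusted p = 0.048, adjusted p = 0.28). Both the fold change and the unadjusted p were close to their thresholds, and 16% of the tested probes were called in the same direction. On 23.4% of them every HFD array exceeded every NC array in IP. No probe had an adjusted p under 0.05 in IP in limma's test, while 5412 had an unadjusted p under 0.05. The call was lost without NC 1, where the log2 difference was 0.44 (limma's test, adjusted p = 0.50). It was also lost without NC 3, HFD 1 or HFD 2, where the log2 difference was 0.69, 0.50 and 0.59. It was kept without NC 2, with 0.71, and without HFD 3, with 0.75. With the header entry as a block, which leaves HFD 3 alone against NC, the log2 difference was 0.34. HFD 3 alone cannot decide whether the call holds.

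Sup of Acaa2 gave no such difference. It was 3.26, 2.87 and 3.07 in log2 in NC, and 3.09, 3.37 and 2.86 in HFD, so the diets were mixed. The highest and the lowest array were both HFD arrays. The log2 difference was 0.04 (standard error 0.23, 95% confidence interval from -0.47 to 0.55; limma's test, adjusted p = 0.97). The size of this difference changed with the scaling, from -0.20 with the median of the spike-in probes to 0.34 under loess and 0.41 with all spike-in probes, and no call was made under any of these.

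**Figure D2:**
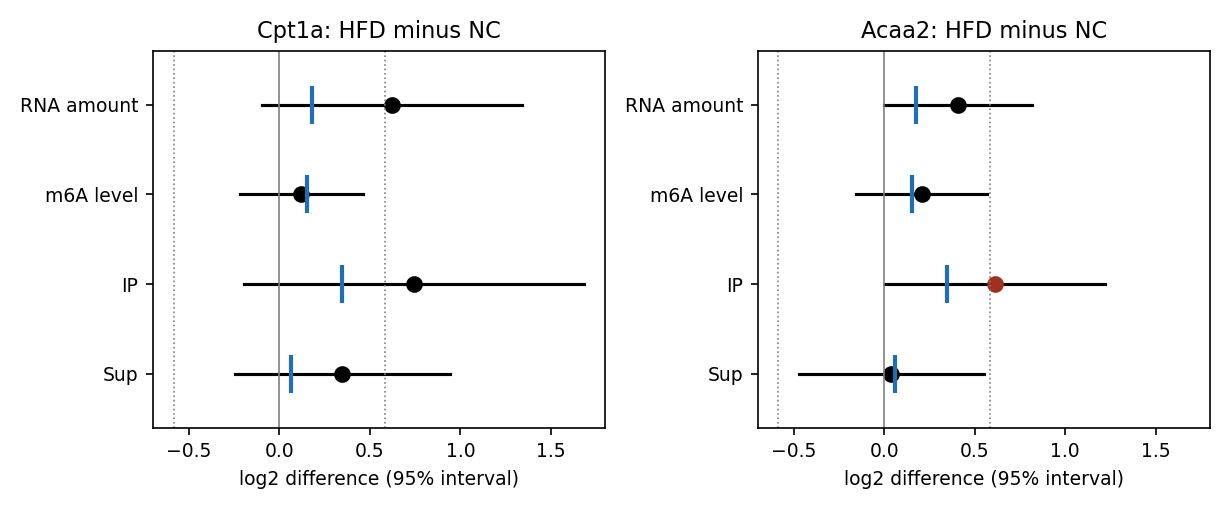
Log2 difference, HFD minus NC, of Cpt1a (left) and Acaa2 (right) in RNA amount, m6A level, IP and Sup, with 95% confidence intervals from limma over 3 arrays per diet. Blue ticks mark the median of all tested probes, dotted lines a fold change of 1.5 in either direction, and the red point the only call, IP of Acaa2 at 0.61.

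The m6A level of Acaa2 was 52.4%, 67.5% and 64.0% on the NC arrays. On the HFD arrays it was 73.7%, 67.4% and 70.0%. NC 1 was the lowest, and HFD 2 lay just below NC 2, so the diets overlapped. The level was 61.3% ± 7.89 (SD, n = 3) for NC against 70.3% ± 3.17 (SD, n = 3) for HFD. The difference of 9.03 percentage points gave p = 0.20 (exact permutation test, two-sided), where 0.10 is the smallest p possible. In log2 it was 0.21 (standard error 0.15, 95% confidence interval from -0.16 to 0.57; limma's test, adjusted p = 0.78), and 59.7% of the tested probes had a smaller difference. Without NC 1 the log2 difference was 0.10. HFD arrays lay above NC arrays in m6A level on 11.2% of the tested probes and in Sup on 11.5%, a pattern that neither gene showed in these measures.

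The differences are set here beside those of all tested probes. The median probe was higher in HFD by 0.18 in log2 RNA amount, by 0.34 in IP and by 0.06 in Sup. Relative to these medians, Cpt1a was higher by 0.44, 0.40 and 0.29. Acaa2 was higher by 0.23 in RNA amount and by 0.27 in IP, and its Sup was -0.02 from the median. In m6A level the members lay at -0.03 (Cpt1a) and 0.05 (Acaa2) from the median probe. The difference of Cpt1a in RNA amount was larger than that of 88.3% of the tested probes, and that of Acaa2 was larger than 74.5%. When each channel was centred on its median probe, the log2 difference in RNA amount was 0.38 for Cpt1a and 0.20 for Acaa2, and IP of Acaa2 was no longer called, with 0.28 (limma's test, adjusted p = 0.63).

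The processing steps before and including the spike-in scaling moved the Sup values most. For Acaa2, log2 Sup in HFD exceeded that in NC by 0.51 in the median spot intensity, by 0.50 after background subtraction and by 0.33 in the processed intensity, with the HFD arrays above the NC arrays at all of these steps. After the spike-in scaling it was 0.04. The mean of the spike-in probes in log2 Sup was 10.19, 10.97 and 11.03 in NC and 11.01, 10.78 and 11.29 in HFD, so NC 1 was the lowest and the diets overlapped. The mean difference of 0.30 was 0.03 without NC 1 (p = 0.50 over all arrays by the exact permutation test). For IP of Acaa2, the difference was 0.87 in the median spot intensity, 0.66 in the processed intensity and 0.61 after scaling. For Cpt1a, the IP difference went from 0.91 to 0.79 and 0.74 over the same steps, and the Sup difference from 0.49 to 0.64 and 0.35. After background subtraction, the difference of Cpt1a was larger than at these steps, at 1.03 in IP and 0.70 in Sup, and that of Acaa2 in IP was 0.89. The direction was thus the same at each step in both genes and channels, and the Sup differences were smallest after the spike-in scaling.

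**Figure D3:**
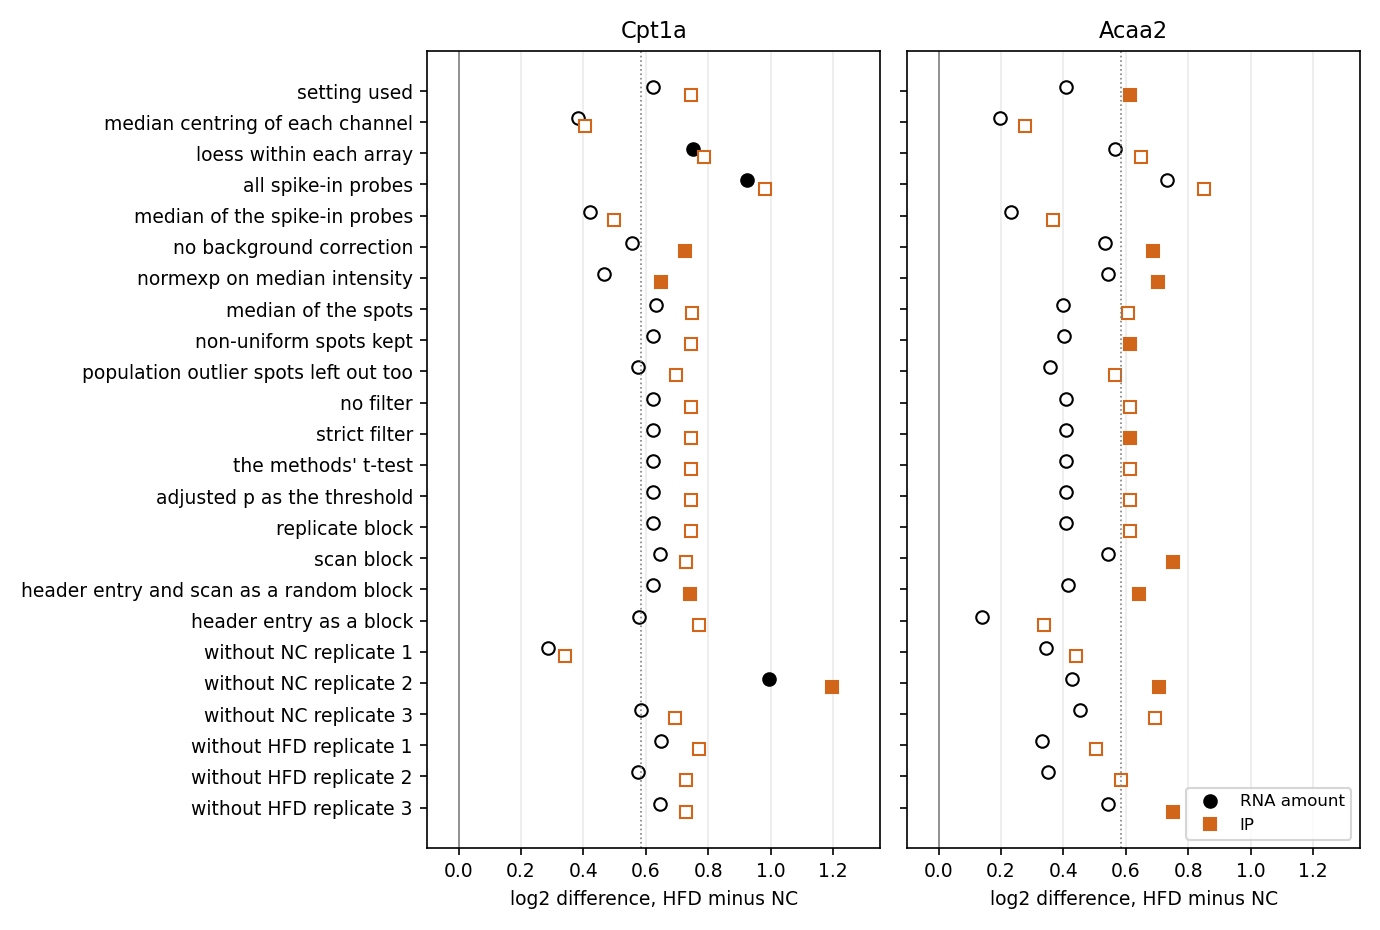
Log2 difference, HFD minus NC, of Cpt1a (left) and Acaa2 (right) in RNA amount (black circles) and IP (orange squares) for the setting used and each alternative applied to both measures. Filled symbols mark a call and the dotted line a fold change of 1.5. Quantile normalization of RNA amount, which has no IP value, is not drawn (0.41 for Cpt1a and 0.23 for Acaa2, no call). Every difference plotted is above 0, and Cpt1a spans 0.28 to 0.996 in RNA amount over the arrays left out in turn.

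Cpt1a and Acaa2 RNA were also compared on the same array, by log2 RNA amount of Cpt1a minus Acaa2. Since probes differ in how well they bind, its level is not read, only its change between arrays and diets. This difference was -3.91, -2.65 and -3.53 in NC, and -3.36, -3.17 and -2.93 in HFD. The NC arrays enclosed the HFD arrays. It changed by 0.21 from NC to HFD, against an SD of 0.64 in NC and 0.22 in HFD (p = 0.60 by a two-sided exact permutation test). Without NC 1 the change was -0.06. In Sup, the difference between the genes was -4.24, -3.08 and -3.65 in NC, and -3.37, -3.31 and -3.36 in HFD. The HFD arrays were again the tighter group, with an SD of 0.03 against 0.58 in NC.

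The spread between the 10 spots of a gene on an array was set beside the spread between arrays. For RNA amount of Cpt1a, the SD between spots of an array was 0.08 in log2, ranging from 0.03 on HFD 3 to 0.10 on HFD 2. The standard error that the spots give an array mean was 0.02, against an SD between array means of 0.71 in NC and 0.08 in HFD. In IP of Cpt1a this standard error was 0.03, against 0.86 in NC and 0.05 in HFD. For Acaa2, RNA amount had an SD of 0.04 between spots and a standard error of 0.01, against an SD of 0.11 between NC arrays and 0.23 between HFD arrays. Pooled over the arrays, spots of Acaa2, the brighter probe, thus scattered less in RNA amount than spots of Cpt1a. On HFD 3 they did not, with an SD of 0.032 against 0.030. Spots are repeated measurements of one RNA sample and add no replicate of a diet.

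Channels differed in precision. Between spots, the log2 SD was 0.09 in IP and 0.14 in Sup for Cpt1a, and 0.05 in IP and 0.09 in Sup for Acaa2. Pooled over the arrays, the log2 ratio of IP to Sup varied more between spots than either channel, with an SD of 0.16 for Cpt1a and 0.10 for Acaa2. This did not hold on every array. On HFD 1, Sup varied more than the ratio, at 0.17 against 0.15 for Cpt1a and 0.09 against 0.08 for Acaa2. On HFD 2 this was so for Cpt1a, at 0.17 against 0.16, but not for Acaa2. In percent, the spots of Cpt1a ranged from 55.5% to 66.4% in m6A level on NC 1 and from 74.9% to 80.3% on HFD 3. The spots of Acaa2 ranged from 49.4% to 55.5% on NC 1 and from 72.5% to 75.5% on HFD 1. These are the arrays with the lowest and the highest level of each gene. Spots of NC 2 overlapped those of HFD arrays in both genes, at 72.1% to 78.3% for Cpt1a and 65.8% to 70.4% for Acaa2. Over 34 other named probes that were tested, the median spot SD of this log2 ratio ran from 0.07 to 0.70.

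Each spot position was also compared across the arrays. At all 10 positions, mean RNA amount of Cpt1a was higher in HFD, by 0.57 to 0.69 in log2, yet at 0 of them did the HFD arrays clear the NC arrays. For IP of Acaa2, every HFD array compared exceeded every NC array at all 10 positions, and the difference ran from 0.57 to 0.65. In m6A level of Acaa2, this was so at 5 positions, and the difference ran from 8.22 to 9.97 percentage points. Sup of Acaa2 was higher in HFD at 4 positions and lower at the others, between -0.06 and 0.10. The widest ranges were those of Cpt1a in Sup, from 0.14 to 0.52, and in m6A level, from 3.49 to 9.72 percentage points, both above 0 at all 10 positions.

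On every array, each spot of Cpt1a and Acaa2 was well above background in IP and in Sup. On NC 1, the weakest array, background-subtracted intensity averaged 82.4 in IP and 37.7 in Sup for Cpt1a, over a local background of 16.2 and 12.5. On HFD 3 the same averages were 672 and 133. For Acaa2 they were 1103 and 701 on NC 1 and 4580 and 1376 on HFD 3. Cpt1a in Sup was therefore the reading nearest to background. On HFD 2, 2 spots of Acaa2 were non-uniform and were left out, which leaves 8 spots there.

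Of the 40 other fatty acid oxidation genes listed, 1 has a named probe, and it passed the filter. This is Ppara (A_51_P348334), which encodes the nuclear receptor PPARα, a transcription factor that fatty acids activate and that drives Cpt1a among other genes of the pathway. Its log2 RNA amount was -0.74, -0.36 and -0.81 in NC, and 0.06, -0.31 and -0.73 in HFD. HFD 1 and HFD 2 lay above the NC arrays, while HFD 3 fell between them. The log2 difference was 0.31 (standard error 0.23, 95% confidence interval from -0.22 to 0.84; limma's test, adjusted p = 0.46), and no call was made, as for most tested probes.

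Ppara was read almost only in IP. All 10 spots were well above background in IP on every array, whereas in Sup 1, 0 and 3 spots were so in NC, and 6, 2 and 8 in HFD. The m6A level was 90.4%, 94.0% and 90.0% in NC, and 93.4%, 92.9% and 92.3% in HFD. With Sup this close to background, these percentages are uncertain at the upper end. The log2 difference in m6A level was 0.02 (standard error 0.12; limma's test, adjusted p = 0.96), and the diets overlapped.

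The pattern of Cpt1a over the 6 arrays was compared with that of 35 named probes by the root mean square difference of centred log2 RNA amounts, where a smaller value means more alike. Rab5a, a small GTPase of early endosomes, was nearest at 0.10. It was followed by Anxa8, a calcium-dependent phospholipid-binding annexin, at 0.17 and by Uhrf1bp1l at 0.21, and the median over the probes was 0.46. On these genes too, NC 1 was the lowest array and NC 2 the highest NC array. Their log2 differences between the diets in RNA amount were 0.76, 0.65 and 0.71, next to 0.62 for Cpt1a. Since the probes were chosen for their likeness over the same arrays, these values are a description.

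Acaa2 was nearest to Tm9sf1, a transmembrane 9 superfamily member, at 0.07. Alkbh4, a member of the AlkB dioxygenase family, came next at 0.10, and Cep41, a centrosomal protein gene, at 0.11, with a median of 0.23 over the probes. Their highest array was HFD 1, as for Acaa2, and HFD 3 lay near the NC arrays. Their log2 differences in RNA amount were 0.27, 0.31 and 0.46, which the choice by likeness likewise sets. Acaa2 stood at rank 11 of 35 for likeness to Cpt1a, and Cpt1a at rank 30 of 35 for likeness to Acaa2, with a root mean square difference of 0.41 between them.

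**Figure D4:**
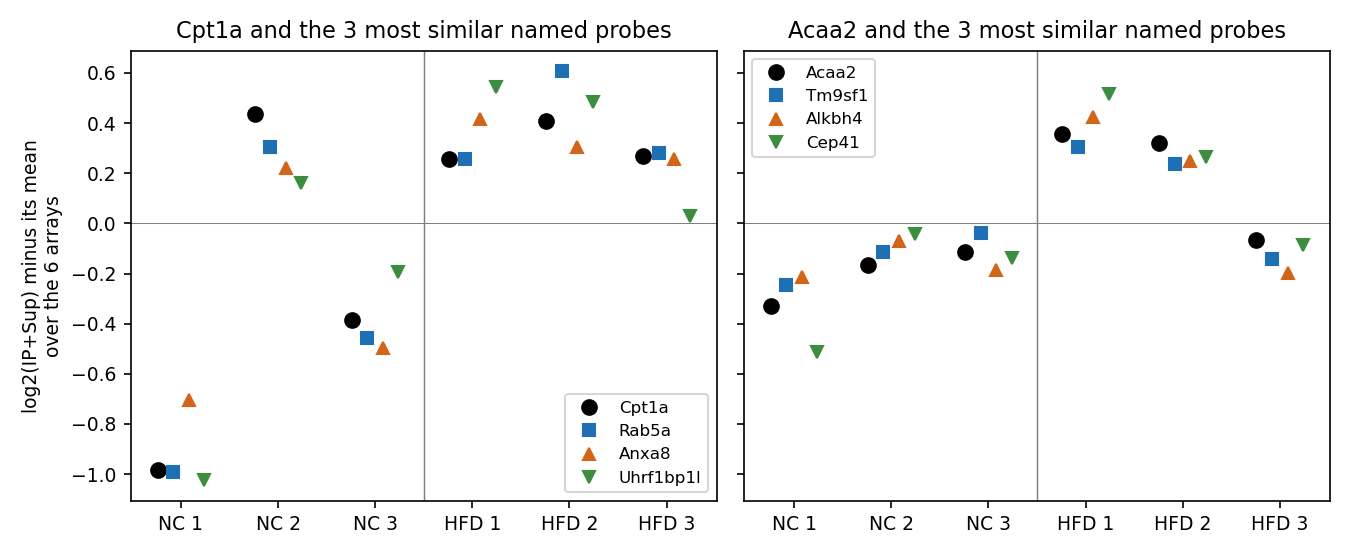
Log2 RNA amount of Cpt1a (left) and Acaa2 (right), each minus its mean over the 6 arrays, with the 3 named probes whose pattern is most alike. NC 1 is the lowest array for Cpt1a and its neighbours and NC 2 lies near the HFD arrays, while Acaa2 and its neighbours are highest on HFD 1 and HFD 2 and lower on HFD 3.

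The other 34 named and tested probes give a scale for the differences. In RNA amount, 26 of them were higher in HFD, 4 were called higher and 2 lower, against 11.3% of all tested probes called higher and 555 of 30224 called lower, with a median log2 difference of 0.26 and a range from -3.25 to 0.99. Of these probes, 4 had a larger difference than Cpt1a and 8 a larger one than Acaa2. In m6A level, 27 were higher in HFD, with a median log2 difference of 0.09. Of the 34, 2 had an unadjusted p under 0.05 in limma's test and 0 were called, while of the 30224 tested probes 1743 had such a p, 913 were called higher and 116 lower. Here, 15 exceeded Cpt1a and 8 exceeded Acaa2.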

How the data were processed

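Each array was read by Agilent Feature Extraction 11.0.1.1, per the submitters' processing notes. The authors deposited the processed intensity of each spot, from which the software had removed background and a spatial trend and which it had balanced for dye, and the median intensity of spot and local background. The deposited flags mark non-uniform and population outlier spots and spots well above background, and are coded as other values. The paper's methods scale raw signals by the mean of log2 spike-in signals and do not say which probes. Here, processed signals were scaled by the mean of 13 of 102 spike-in probes, whose spots were all well above background in IP and Sup on all arrays. Processed intensities floored at 1 were taken. Non-uniform spots were left out and the spots of a probe averaged in log2.

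Probes with at least 50% of their spots well above background in 1 channel on at least 3 arrays, 30224 in all, were fitted with limma 3.58.1 in R 4.3.3, HFD against NC, without a block. P-values were adjusted over all of them by Benjamini-Hochberg. The functions were tested on simulated data. Gene symbols were found by accession for 45 of the 50 Agilent probes in the GRCm38.p6 gene table, and 36 of these were tested. The array design names the mm9 build, so no coordinates are given, and probe sequences are not used here. For NC 3, 1 label gives another replicate than the title, and the title was used. The members, the lists and the likeness rule (the 3 most alike named probes) were chosen with earlier results of these data known. Alternatives covered scaling, background, spots, filter, test, block and each array left out. The number of arrays limits the precision.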

Additional observations from a re-analysis of the deposited data

How the results depend on the processing

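Differences here are log2, HFD minus NC. With 3 arrays per diet, the call of Acaa2 IP (0.61) was not stable. It was lost under median centring (0.28), loess (0.65), all spike-in probes (0.85), the median of the spike-in probes (0.37), the median of the spots (0.61), no filter (0.61), the methods' t-test (0.61), an adjusted p as the threshold (0.61) and removal of population outlier spots (0.56), an alternative chosen after seeing the data, and it was kept without background correction, under normexp, with non-uniform spots and under the strict filter. With each replicate left out it ran from 0.44 to 0.75. Its adjusted p ran from 0.034 (normexp, limma's test) to 0.75 (median of the spike-in probes, limma's test), leaving aside the header entry as a block.

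Cpt1a RNA amount became a call under loess (0.75) and all spike-in probes (0.92), and ran from 0.28 to 0.996 with each replicate left out. Cpt1a IP became a call without background correction (0.73) and under normexp (0.65), and also without NC 2 (1.20), the upper end of a range from 0.34 with each replicate left out. Acaa2 Sup turned to -0.012 under median centring, -0.20 with the median of the spike-in probes and -0.016 without population outliers, was 0.41 with all spike-in probes, 0.34 under loess and 0.24 under normexp and without background correction, with no call, and ran from -0.092 to 0.16 with each replicate left out. Cpt1a minus Acaa2 within an array turned to -0.076 in RNA amount, -0.055 in IP and -0.098 in Sup under normexp, and to -0.023 in Sup without background correction. With each replicate left out it ran from -0.060 to 0.57 in RNA amount, from -0.10 to 0.49 in IP and from 0.019 to 0.60 in Sup. Acaa2 RNA amount, Cpt1a Sup and both m6A levels kept their direction and made no call in any alternative, although their sizes moved. Acaa2 RNA amount ran from 0.14 to 0.73, Cpt1a Sup from 0.09 to 0.72, and the m6A level from 0.02 to 0.20 for Cpt1a and from 0.08 to 0.28 for Acaa2 (0.40 and 0.58 as IP/Sup). The cause was not tested, apart from settings that change only the probes tested, the threshold or the test.

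With the replicate number as a block, Acaa2 IP was no longer called (0.61, adjusted p = 0.42 from limma's test), and no other call changed. The numbers do not pair the samples, since same-numbered deviations over all tested probes correlated at -0.09, 0.11 and -0.22 in RNA amount and at 0.02, -0.01 and -0.04 in m6A level. The scan block equals leaving out HFD 3, the only array of its scan. A header entry that may name the slide was added after seeing the data. As a block, which leaves HFD 3 alone against NC and so cannot decide a call, it gave 0.34 for Acaa2 IP and -0.21 for Acaa2 Sup. With the scan as a random block it made Cpt1a IP a call (0.74) and kept the call of Acaa2 IP (0.64). Each of these 3 blocks holds 1 diet, so this fit cannot separate block from diet and does not decide either call. The estimated correlation within blocks was negative, at -0.28 in IP. The standard error in IP was 0.29 for Cpt1a and 0.19 for Acaa2, against 0.41 and 0.26 without a block.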
